A study of Mus musculus with 45 samples.

Results

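Livers of mice fed a high-fat diet (HFD) for 16 weeks were compared with livers of chow-fed mice, both taken 15 min after an injection of insulin. The 6 libraries were picked by their labels, 3 per diet, out of 45 in the series, and all 23227 genes of the deposited count tables were considered. The HFD group was C57BL/6J wild type, started the diet (S3282 from Bioserve) at 8 weeks of age, and was killed at 24 weeks of age. The chow group had the same strain, genotype and age and stayed on a standard chow from Prolab (Isopro RMH). Mice of both groups were starved overnight before insulin (Novolin R, a human insulin) was given intraperitoneally at 1 U/kg, and neither group had metformin. The labels do not give the sex. The study profiled polyadenylated liver RNA over a time course of insulin on both diets, with at least 3 mice per group. Each library was taken to stand for 1 mouse. A p-value sets a difference against the spread between mice, which was estimated with all 45 libraries of the series. None of the 6 livers enters the comparison of the diets at baseline, before insulin, or at 30, 60 and 120 min, so those times give separate sets of mice.

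Insulin binds its receptor on the hepatocyte, and the receptor, through IRS proteins, PI3 kinase and AKT, keeps FOXO transcription factors out of the nucleus and activates SREBP-1c. In the healthy liver this lowers transcripts of glucose production and of IGFBP1 and raises the lipid synthesis enzymes. Fasting does the opposite, and also turns on fat oxidation through PPARα. Long high-fat feeding is used to model insulin resistance, in which insulin lowers glucose output poorly while the liver goes on storing fat. Immediate early genes answer a stimulus within minutes, while transcripts of metabolic enzymes change more slowly.

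The libraries held 22164041, 22740112 and 22368168 counts in HFD livers and 21287735, 26904616 and 30827173 counts in chow livers, and those of the series 18.2 M to 50.3 M. HFD replicate 3 stood apart: 20 genes of pancreatic acinar cells, the cells that make digestive enzymes, summed to 25070 CPM (counts scaled to the same library total) there, or 2.65% of its counts. They summed to 30.0 and 16.9 CPM in HFD replicates 1 and 2, and to 3714, 484 and 220 CPM in the chow livers. None of these 20 genes was called between the diets. The islet hormone genes Ins2, Ins1, Iapp and Gcg and the secretory granule gene Chga, which were looked up after the values were seen, were called higher, yet rested on the same library. Ins2 had 0, 0 and 54.6 CPM in HFD livers and 0.429, 0 and 0 CPM in chow livers, with an edgeR adjusted p of 0.0329, and 0.709 without HFD replicate 3. The other 4 of these genes had adjusted p of 0.63 to 0.953 without it. Log2 CPM of HFD replicate 3 correlated at 0.973 and 0.965 with the other HFD livers, which correlated at 0.987 with each other, and the chow livers correlated at 0.986 to 0.991. The diets also differed in how levels went with base composition: the Spearman correlation across genes of GC content with a library's deviation from the mean of all 45 libraries was 0.33, 0.13 and 0.25 in HFD livers and -0.20, -0.23 and -0.12 in chow livers. The part of either feature in the results was not tested beyond the values given below.

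**Figure D1:**
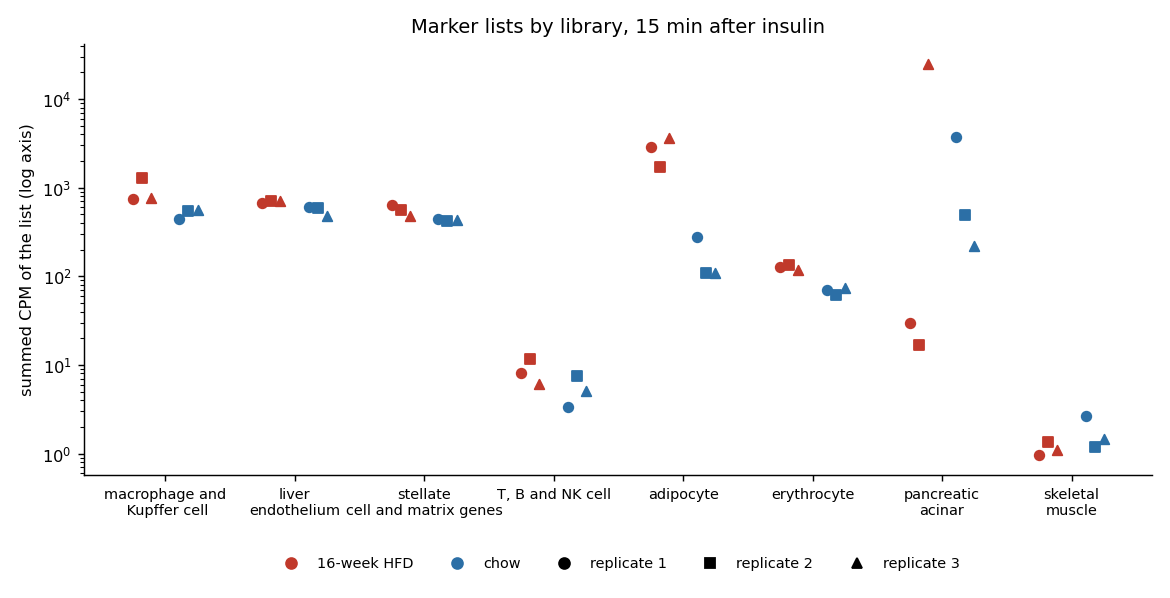
Summed CPM of 8 marker lists in each library, on a log axis, with 16-week HFD livers (red) left of chow livers (blue) and a symbol for each replicate. HFD replicate 3 reaches 25070 CPM for the pancreatic acinar list, and the macrophage sum is highest in HFD replicate 2, at 1294 CPM.

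Of 14067 genes with enough reads to test, 3438 differed between the diets at 15 min at a false discovery rate below 0.05 (edgeR's quasi-likelihood test with Benjamini-Hochberg adjustment), which is 24.4%. 1728 were higher in HFD livers, or 12.3%, and 1710 were lower, or 12.2%. Changes over 2-fold were more often upward, with 550 genes higher and 210 lower. When trends with transcript length and GC content were removed, the split moved to 1294 higher and 2121 lower, so that 37.9% of the calls were higher, against 50.3%. Of the 3415 genes called then, 2524 were among the 3438. Leaving out 1 liver at a time gave 2409 to 2683 calls. Without reference to any test, all 3 HFD livers lay beyond all 3 chow livers for 46.2% of the tested genes. The number of members called in each list below is to be read against these shares, and the median log2 fold change (HFD over chow) against 0.03 for all tested genes. A list called about as often as all genes does not stand out.

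**Figure D2:**
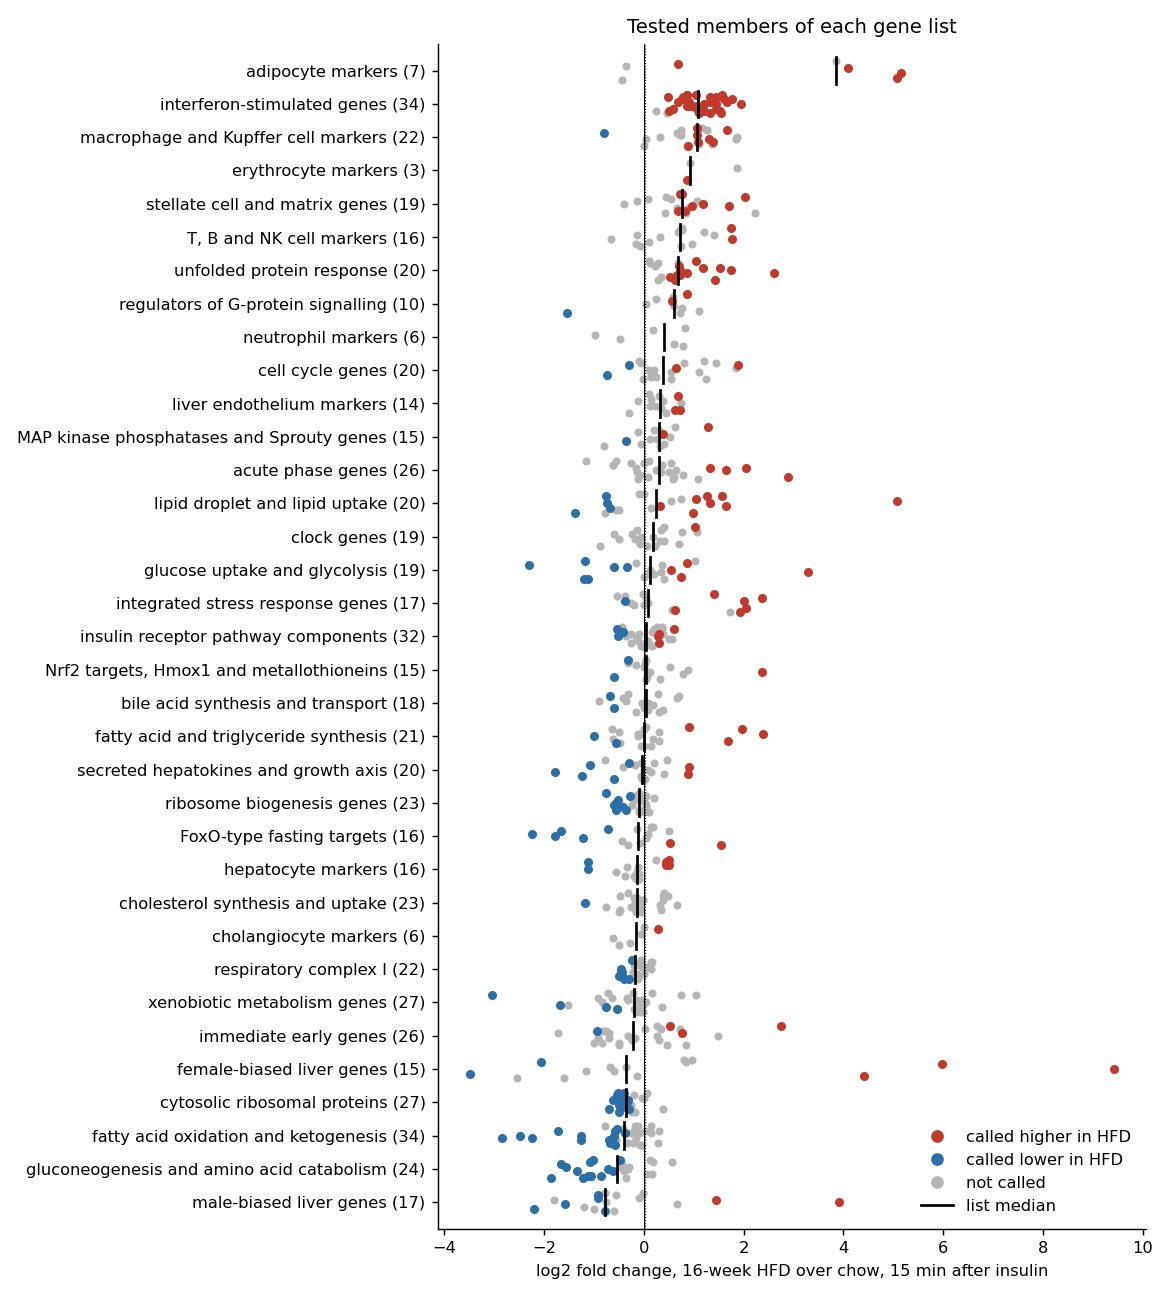
Log2 fold change (16-week HFD over chow, 15 min after insulin) of every tested member of 35 gene lists, 1 point per gene, with the number tested in brackets, the list median as a black bar and the median of all tested genes as a dotted line. Red points were called higher in HFD livers, blue points lower and grey points were not called at a false discovery rate below 0.05. Interferon-stimulated genes lie to the right of 0, and fat oxidation and glucose production genes mostly to the left.

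Glucose production and amino acid breakdown were the side of liver metabolism that stood lower in HFD livers. Of 24 tested members, 13 fell and none rose, with a median log2 fold change of -0.54. G6pc, the catalytic subunit of glucose-6-phosphatase and the last step of glucose output (chromosome 11, 101229044 to 101239217, mm9), had 232, 183 and 231 CPM in HFD livers and 725, 542 and 776 CPM in chow livers. The groups did not overlap, and the log2 fold change was -1.66 ± 0.37 (SE; edgeR adjusted p = 0.00138). Pck1, the cytosolic PEPCK that feeds the same route, had 3356, 3006 and 2654 CPM in HFD livers and 5093, 4651 and 5034 CPM in chow livers. Its groups were also separate, with a log2 fold change of -0.71 ± 0.22 and an edgeR adjusted p of 0.0183, which became 0.0824 without HFD replicate 3. Ppargc1a, a coactivator that drives both genes in fasting, had 9.32, 10.6 and 9.35 CPM in HFD livers and 19.3, 17.8 and 31.1 CPM in chow livers, a change of -1.22 ± 0.23 (edgeR adjusted p = 0.000314).

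Enzymes of amino acid breakdown were among the members that fell. Asl, argininosuccinate lyase of the urea cycle, had 449, 539 and 388 CPM in HFD livers and 1394, 1027 and 1637 CPM in chow livers, with no overlap. Its log2 fold change was -1.56 ± 0.22 (edgeR adjusted p = 5.97e-06). Arg1, the arginase that releases urea, fell by 1.07 ± 0.12 on the log2 scale, and Cps1, which fixes ammonia in the first step, fell by 1.11 ± 0.21. Tdo2, which opens the breakdown of tryptophan, had 1773, 1827 and 1792 CPM in HFD livers and 3838, 3228 and 3796 CPM in chow livers. The count of members that fell ranged from 10 to 16 when 1 liver was left out at a time, and none rose in any of these fits.

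Fat oxidation was lower as well, and its lowest fold changes were of a peroxisomal and a microsomal enzyme. Of 34 tested members, 14 fell and none rose, with a median of -0.39. Cyp4a14, a fatty acid omega-hydroxylase and a classical PPARα target (chromosome 4, 115158805 to 115168746, mm9), had 2126, 2210 and 2577 CPM in HFD livers and 12800, 13040 and 12540 CPM in chow livers. The spread within each diet was far smaller than the gap, and the log2 fold change was -2.47 ± 0.26 (edgeR adjusted p = 1.03e-07). Ehhadh, the peroxisomal bifunctional enzyme, had 610, 702 and 630 CPM in HFD livers and 4099, 5276 and 4593 CPM in chow livers, a change of -2.85 ± 0.37 (edgeR adjusted p = 2.71e-06). Cyp4a10 changed by -1.73 ± 0.22, although 37.3% of its 40-base words also occur in other genes, so reads may be shared between copies. In the mitochondrion, Hadhb of the trifunctional protein fell by 0.69 ± 0.11 on the log2 scale. Cpt1a, the carnitine transferase that gates entry, was not called, with 831, 891 and 950 CPM in HFD livers and 884, 953 and 1151 CPM in chow livers, and Ppara itself had a log2 fold change of 0.29 ± 0.17 (edgeR adjusted p = 0.218). With length and GC trends removed, 18 members fell.

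The 250 bases before the start sites of 23 members, taken from RefSeq (GRCm38.p6), were searched on both strands for the direct repeat AGGTCANAGGTCA that PPARα and RXR bind in its ideal form. None of the 23 held it, against 0.0638% of the tested genes and 0.0335% of all 32851 promoters of that length. A sequence this rare would be absent from almost any 23 promoters, so its absence says nothing about these members. The letters are a strict version of the element, and the search covers this window only.

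Lipid synthesis went the other way in a few members. Srebf1, which encodes SREBP-1, had 109, 186 and 116 CPM in HFD livers and 28.5, 37.5 and 38.2 CPM in chow livers, a change of 1.98 ± 0.29 (edgeR adjusted p = 1.35e-05). It overlaps Rai1 on the other strand, and the library kit does not keep strand. Thrsp, a lipogenic regulator, had 117, 52.9 and 164 CPM in HFD livers and 13.9, 15.1 and 34.6 CPM in chow livers, a change of 2.39 ± 0.52.

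The lipid synthesis list did not move as one. Of 21 tested members, 4 rose and 2 fell, which is 28.6% against 24.4% of all genes, and the median was 0.01. Dgat2, which makes triglyceride, rose by 0.91 ± 0.13 and Scd1, the stearoyl-CoA desaturase, by 1.69 ± 0.62 on the log2 scale, and the call for Scd1 was lost without any 1 liver other than HFD replicate 3. Dgat1 changed by -0.56 ± 0.09 and Elovl6, a fatty acid elongase, by -0.99 ± 0.24. Fasn, fatty acid synthase, had 139, 107 and 173 CPM in HFD livers and 117, 154 and 147 CPM in chow livers, so the diets overlapped, and Acaca, acetyl-CoA carboxylase, had a log2 fold change of 0.01 ± 0.18, with 54.8% of its words in other genes. Cholesterol synthesis and uptake had no member higher and 1 of 23 lower, Hsd17b7, with 57.2, 32.6 and 70.4 CPM in HFD livers and 94.0, 153 and 117 CPM in chow livers (edgeR adjusted p = 0.0163). That call was lost without HFD replicate 2, at an adjusted p of 0.102, and without chow replicate 2, at 0.0823.

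Of 20 lipid droplet and uptake genes, 8 rose and 4 fell, with a median of 0.24. Cd36, a fatty acid transporter, had 233, 171 and 238 CPM in HFD livers and 103, 90.3 and 71.1 CPM in chow livers, a change of 1.28 ± 0.30 (edgeR adjusted p = 0.00242). The receptor Vldlr rose by 1.56 ± 0.37 and Fitm1, which helps droplets form, by 1.33 ± 0.32 on the log2 scale. Pparg, the fat-storage regulator, had 12.4, 8.75 and 14.3 CPM in HFD livers and 5.91, 6.53 and 5.39 CPM in chow livers. Pnpla2, the triglyceride lipase ATGL, had 113, 110 and 100 CPM in HFD livers and 155, 155 and 206 CPM in chow livers, a change of -0.67 ± 0.16. Cidea, a droplet fusion factor, had 10.6, 0.203 and 8.17 CPM in HFD livers and 0.286, 0.109 and 0.171 CPM in chow livers, so that HFD replicate 2 lay within the chow range although the gene was called (edgeR adjusted p = 0.003). The count of members that fell was 2 without HFD replicate 1, HFD replicate 2 or chow replicate 2, and 1 without chow replicate 3.

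Of 19 glycolysis and glycogen genes, 4 rose and 6 fell, with a median of 0.13. Pfkl, the liver phosphofructokinase, had 44.6, 47.6 and 43.1 CPM in HFD livers and 27.2, 23.5 and 23.5 CPM in chow livers. Gys2, the liver glycogen synthase, changed by -1.17 ± 0.18. Txnip, an inhibitor of thioredoxin and of glucose uptake, had 129, 105 and 140 CPM in HFD livers and 195, 319 and 346 CPM in chow livers, and its antisense neighbour Gm15441 had 4.43, 0.976 and 6.22 CPM in HFD livers and 35.7, 47.4 and 44.9 CPM in chow livers. Reads of this pair cannot be told apart by strand here. Without chow replicate 2, 2 members of the list rose.

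**Figure D3:**
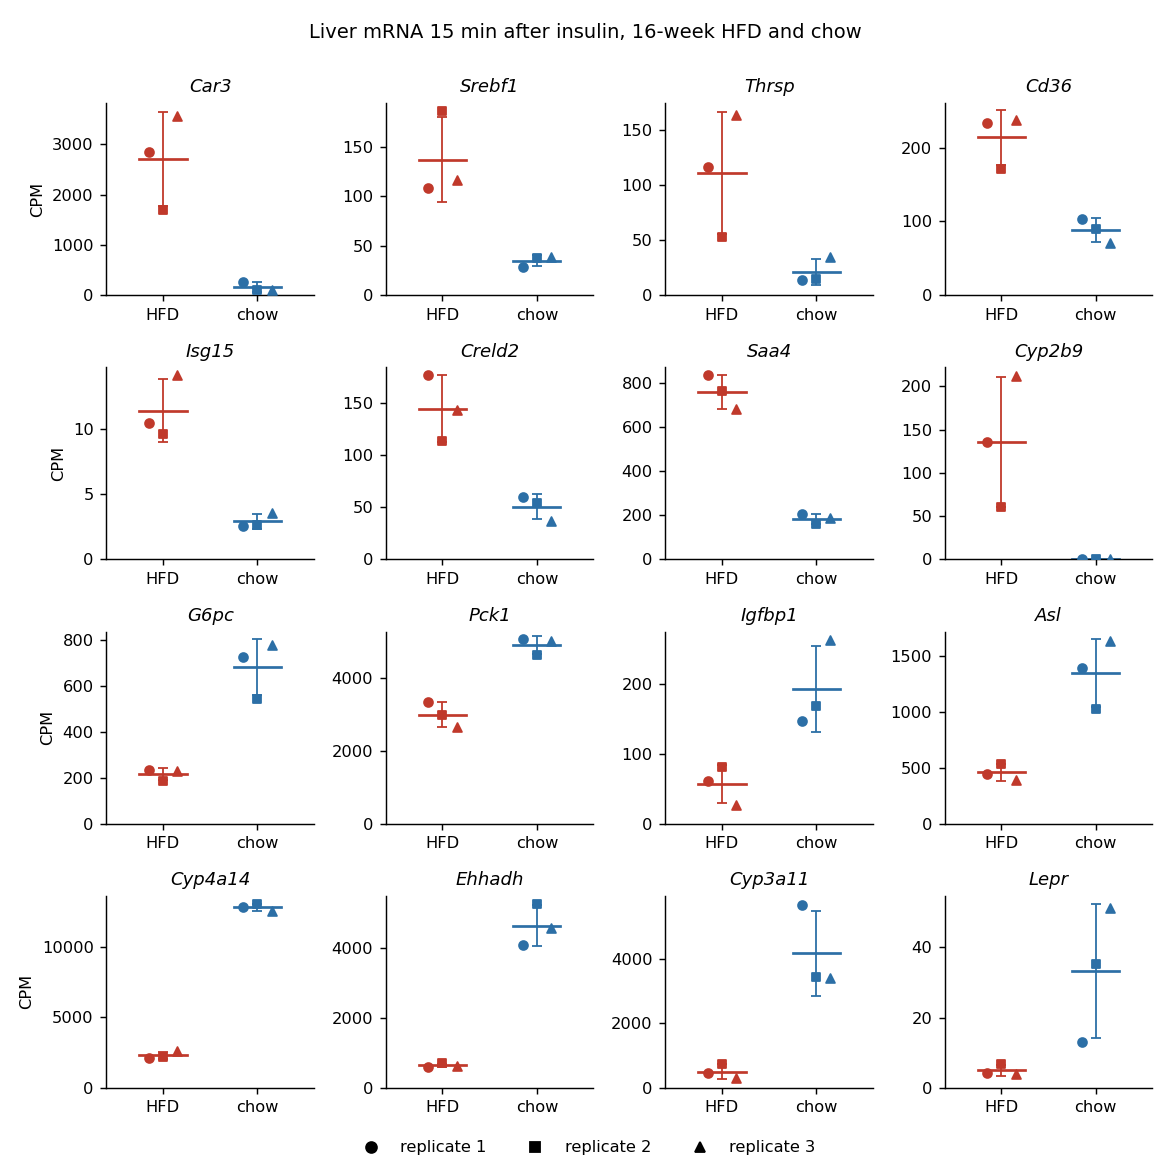
CPM of 16 genes in each of the 6 livers 15 min after insulin, with 16-week HFD (red) left of chow (blue), a symbol for each replicate, and the mean with SD (n = 3). In all 16 panels the 2 diets are separate, with G6pc at 183 to 232 CPM in HFD livers and 542 to 776 CPM in chow livers.

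Components of the insulin pathway itself were called about as often as all genes. Of 32 tested, 4 rose and 4 fell, which is 25.0% against 24.4% of all genes. Insr, the receptor, had 169, 198 and 190 CPM in HFD livers and 207, 195 and 208 CPM in chow livers, a log2 fold change of -0.13 ± 0.12 (edgeR adjusted p = 0.452). Irs2, the main fasting IRS protein, had 9.94, 14.4 and 11.0 CPM in HFD livers and 15.4, 20.1 and 12.4 CPM in chow livers (edgeR adjusted p = 0.507). The diets overlapped for both. Rps6kb1, the S6 kinase, fell by 0.52 ± 0.09 on the log2 scale, Sos1, an exchange factor for RAS, by 0.54 ± 0.11, Rheb, the activator of mTORC1, by 0.42 ± 0.10, and Grb14, an inhibitor of the receptor, by 0.42 ± 0.12. Pik3r1, the regulatory subunit of PI3 kinase, rose by 0.61 ± 0.18. The call was lost for Grb14 without HFD replicate 3 or chow replicate 3, and for Pik3r1 without chow replicate 2. With length and GC trends removed, 1 member rose and 7 fell, and 2 rose without HFD replicate 2 and 1 without chow replicate 2.

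Targets of FOXO in fasting were lower in part: 5 of 16 fell and 2 rose, with a median of -0.11. Igfbp1, a secreted binding protein that insulin shuts off within a short time (chromosome 11, 7097790 to 7102549, mm9), had 61.3, 81.4 and 27.0 CPM in HFD livers and 147, 169 and 264 CPM in chow livers. The groups were separate, with a log2 fold change of -1.77 ± 0.52 and an edgeR adjusted p of 0.0126. The call was lost without HFD replicate 3, at an adjusted p of 0.0789, and without chow replicate 3, at 0.0637. Pdk4, which blocks glucose oxidation, had 11.4, 10.3 and 13.5 CPM in HFD livers and 43.9, 71.8 and 50.5 CPM in chow livers, and was lost without HFD replicate 1, HFD replicate 2 or chow replicate 2. Bcl6, a repressor, was called higher by 1.54 ± 0.53 with overlapping diets, at 68.3, 47.3 and 22.9 CPM in HFD livers and 30.1, 7.26 and 10.5 CPM in chow livers, and was lost without HFD replicate 1, HFD replicate 2, chow replicate 2 or chow replicate 3. No member rose without HFD replicate 1, HFD replicate 2 or chow replicate 2, 1 rose without chow replicate 1 or chow replicate 3, and 3 fell without HFD replicate 3.

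Secreted liver factors gave 2 members higher and 5 lower of 20, with a median of -0.04. Beside Igfbp1, Igfbp2 had 263, 447 and 393 CPM in HFD livers and 776, 708 and 1102 CPM in chow livers, and Rbp4, the retinol carrier, fell by 0.60 ± 0.13 on the log2 scale. Igfals, which holds IGF1 in its circulating complex, rose by 0.90 ± 0.25. The call was lost for Igfbp2 without HFD replicate 1 or chow replicate 3, and for Igfals without HFD replicate 3 or chow replicate 1. Fgf21 was not called, at 6.13, 12.8 and 5.33 CPM in HFD livers and 8.43, 17.0 and 16.2 CPM in chow livers. The members that fell numbered 2 without HFD replicate 1 or HFD replicate 3 and 1 without chow replicate 3. The members that rose numbered 0 without HFD replicate 3 and 1 without HFD replicate 1 or any 1 chow liver.

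Immediate early genes, the class that responds first to a stimulus, gave few calls at 15 min. Egr1, a zinc finger factor, had 53.0, 33.8 and 15.2 CPM in HFD livers and 16.8, 50.4 and 135 CPM in chow livers, a log2 fold change of -0.99 ± 0.70 (edgeR adjusted p = 0.313). The diets overlapped, and without chow replicate 3 the value was 0.01. Of 26 tested members, 3 rose and 1 fell, 15.4% in all against 24.4% of all genes, with a median of -0.21. This median was 0.004 without chow replicate 3 and 0.13 without a filter on low counts. Klf10 had 39.0, 34.5 and 34.5 CPM in HFD livers and 47.6, 82.1 and 75.4 CPM in chow livers, a change of -0.93 ± 0.28 (edgeR adjusted p = 0.0149). Its call was lost without HFD replicate 3, chow replicate 2 or chow replicate 3, at adjusted p of 0.0516 to 0.0774. Srf, which drives many of these genes, rose by 0.52 ± 0.14 and Ier5 by 0.76 ± 0.28 on the log2 scale, and neither was called with length and GC trends removed. Ier5 was also lost without any 1 liver other than HFD replicate 3. Egr2 was called higher from low levels, at 0.663, 0.447 and 0.508 CPM in HFD livers and 0, 0.109 and 0.102 CPM in chow livers. Without chow replicate 1, 3 members fell.

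Brakes on kinase signalling were mostly not called, with 2 of 15 MAP kinase phosphatase and Sprouty genes higher, 1 lower and a median of 0.30. Spry4, a Sprouty inhibitor of receptor kinases, had 26.2, 20.99 and 12.9 CPM in HFD livers and 5.24, 7.66 and 11.6 CPM in chow livers, and was lost without HFD replicate 1 or chow replicate 1. Dusp16 changed by 0.39 ± 0.13 and Errfi1, an EGF receptor inhibitor, by -0.35 ± 0.12. No member rose without HFD replicate 1 or chow replicate 1, 1 rose without HFD replicate 2 or chow replicate 2, and none fell without HFD replicate 2, HFD replicate 3, chow replicate 1 or chow replicate 3.

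Regulators of G-protein signalling, the family of the gene in the study's title, gave 2 members higher and 1 lower of 10, with a median of 0.60. That is 30.0% called, against 24.4% of all genes. Rgs4 had 3.06, 4.596 and 1.86 CPM in HFD livers and 2.00, 1.89 and 1.74 CPM in chow livers. HFD replicate 3 lay within the chow range, and the log2 fold change was 0.76 ± 0.40 (edgeR adjusted p = 0.162). Rgs12 rose by 0.57 ± 0.21 and Rgs19 by 0.86 ± 0.32 on the log2 scale, and neither was called without a filter on low counts. No member rose without HFD replicate 1 or chow replicate 1, and 1 rose without any other 1 of the livers. Rgs1, a lymphocyte and myeloid member, changed by -1.55 ± 0.43, and was lost without chow replicate 3. Rgs16 was not called, at 190, 76.9 and 71.6 CPM in HFD livers and 37.0, 49.2 and 70.6 CPM in chow livers.

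Interferon-stimulated genes, the antiviral and antigen-processing set that interferon signalling switches on, had the highest share of members called among the 37 lists, 94.1%. Of 34 tested, 32 rose and none fell, with a median of 1.09, and in 33 the HFD livers all lay above the chow livers, against 24.0% of all genes. Isg15, a ubiquitin-like modifier (chromosome 4, 155573533 to 155574927, mm9), had 10.5, 9.64 and 14.2 CPM in HFD livers and 2.57, 2.65 and 3.58 CPM in chow livers, a change of 1.95 ± 0.29 (edgeR adjusted p = 1.78e-05). Ifit1, which binds foreign RNA, had 16.2, 11.4 and 25.5 CPM in HFD livers and 5.86, 4.86 and 5.90 CPM in chow livers, and Ifi44 had 4.27, 3.50 and 6.01 CPM in HFD livers and 1.67, 1.67 and 1.37 CPM in chow livers. Ifit3 changed by 1.52 ± 0.26, with 56.2% of its 40-base words shared with other genes. Bst2 and Parp9 were not called. The list held 30 to 33 members called higher under the alternatives tried. Markers of macrophages, 7 of 22, were called higher too, with a sum of 746, 1294 and 762 CPM in HFD livers and 443, 539 and 562 CPM in chow livers, and their part in the list was not tested. In bulk liver RNA, more cells of a type and more RNA per cell cannot be told apart.

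The interferon-stimulated response element, written here as GAAANNGAAA and searched on both strands, occurred in the 250 bases before the start of 10 of 25 matched members, or 40.0%, and of 3.33% of the tested genes. 2.98% of all promoters of this length in RefSeq held it. The members with the smallest adjusted p among those 10 were Isg15 and Ifit3. Their promoters follow 5′ to 3′ on the gene's strand, from chr4:156200819-156201068 (minus strand) and chr19:34583279-34583528 (plus strand) of GRCm38.p6, with every match in capitals to show how close to the start the element sits. In Isg15 3 matches overlap, beginning 78, 72 and 66 bases before the start, and in Ifit3 both matches are on the opposite strand, 156 and 122 bases before it.
Isg15: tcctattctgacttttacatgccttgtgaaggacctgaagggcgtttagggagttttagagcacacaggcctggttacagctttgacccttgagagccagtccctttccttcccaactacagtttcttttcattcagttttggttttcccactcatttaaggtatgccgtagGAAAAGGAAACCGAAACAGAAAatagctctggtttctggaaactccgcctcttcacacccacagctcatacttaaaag
Ifit3: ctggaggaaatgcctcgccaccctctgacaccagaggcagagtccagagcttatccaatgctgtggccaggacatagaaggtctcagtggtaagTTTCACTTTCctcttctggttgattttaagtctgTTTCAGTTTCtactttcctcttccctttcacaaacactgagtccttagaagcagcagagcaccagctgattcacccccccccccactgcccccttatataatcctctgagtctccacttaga

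Chaperones and quality-control genes of the endoplasmic reticulum rose together. Of 20 tested members of the unfolded protein response, 13 rose and none fell, with a median of 0.70. Creld2, a secreted stress chaperone, had 177, 114 and 143 CPM in HFD livers and 59.9, 54.4 and 36.8 CPM in chow livers, a change of 1.52 ± 0.38 (edgeR adjusted p = 0.0034). Edem1, which extracts misfolded glycoproteins, had 217, 240 and 228 CPM in HFD livers and 151, 139 and 124 CPM in chow livers. Syvn1, the ubiquitin ligase HRD1, rose by 1.42 ± 0.34 and Sdf2l1, a chaperone cofactor, by 1.75 ± 0.46 on the log2 scale. Syvn1 overlaps Mrpl49 on the other strand. Hspa5, the master chaperone BiP, had 1584, 1431 and 1470 CPM in HFD livers and 1035, 981 and 770 CPM in chow livers and was not called (edgeR adjusted p = 0.0812). Without HFD replicate 3, the library with pancreatic transcripts, 9 members rose, and without chow replicate 3, which had the lowest CPM of Creld2, Edem1 and Hspa5, 6 rose.

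The stress response element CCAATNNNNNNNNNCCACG, which ATF6 and NF-Y bind, was searched on both strands in the same windows. It occurred in 9 of 18 matched members, or 50.0%, in 0.164% of tested genes and in 0.113% of all promoters. The called members holding it with the smallest adjusted p were Syvn1 and Creld2, from chr19:6046326-6046575 and chr15:88819396-88819645, both on the plus strand of GRCm38.p6, shown because both hold the whole element. The match, in capitals, begins 44 bases before the start in Syvn1 and, on the opposite strand, 126 bases before it in Creld2. A match of letters is a description and shows no binding.
Syvn1: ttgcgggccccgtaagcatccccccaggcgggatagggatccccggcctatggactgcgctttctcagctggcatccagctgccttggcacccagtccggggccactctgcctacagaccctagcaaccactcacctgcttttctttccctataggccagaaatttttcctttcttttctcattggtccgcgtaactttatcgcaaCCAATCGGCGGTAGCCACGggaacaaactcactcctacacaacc
Creld2: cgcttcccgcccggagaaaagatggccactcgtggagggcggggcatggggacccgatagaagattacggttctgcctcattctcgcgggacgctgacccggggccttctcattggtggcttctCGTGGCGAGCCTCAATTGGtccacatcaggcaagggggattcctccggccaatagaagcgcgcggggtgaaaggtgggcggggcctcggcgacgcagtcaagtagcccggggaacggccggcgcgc

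Genes of the integrated stress response, the ATF4 branch that supplies amino acids and folate units, gave 6 of 17 higher and 1 lower, with a median of 0.08. Aldh18a1, of proline synthesis, had 2.48, 2.56 and 2.96 CPM in HFD livers and 1.00, 0.690 and 0.444 CPM in chow livers. Mthfd2 had 0.911, 4.15 and 2.79 CPM in HFD livers and 0.667, 0.762 and 0.478 CPM in chow livers, and was lost without HFD replicate 2 or chow replicate 3. Shmt2, the mitochondrial serine enzyme, which overlaps Ndufa4l2 on the other strand, rose by 0.63 ± 0.15 and the cystine carrier Slc7a11 by 2.36 ± 0.75 on the log2 scale, and Slc7a11 was lost without HFD replicate 3, chow replicate 1 or chow replicate 3. Atf4 itself was the 1 that fell, by 0.38 ± 0.14. Without HFD replicate 2 or chow replicate 1, 3 members rose, and without chow replicate 3, 2 rose. None fell without HFD replicate 1, HFD replicate 3, chow replicate 2 or chow replicate 3.

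Of 26 acute phase genes, which the liver makes in inflammation, 4 rose and none fell, with a median of 0.30. That is 15.4% higher, against 12.3% of all genes. Saa4, the constitutive serum amyloid A, had 834, 761 and 679 CPM in HFD livers and 203, 159 and 188 CPM in chow livers, a change of 2.05 ± 0.29 (edgeR adjusted p = 9.41e-06). Steap4, a metal reductase, had 239, 233 and 210 CPM in HFD livers and 69.2, 86.6 and 60.7 CPM in chow livers. Lcn2, lipocalin 2, rose by 2.89 ± 0.84 and Itih4 by 1.32 ± 0.33 on the log2 scale, and Lcn2 was lost without chow replicate 1. Of 15 NRF2 targets and metallothioneins, 1 rose, Slc7a11, and 2 fell, Srxn1 and Txnrd1, with a median of 0.05. None rose without HFD replicate 3, chow replicate 1 or chow replicate 3, and those that fell numbered 1 without HFD replicate 1, 2 without chow replicate 3 and 0 without any other 1 of the livers.

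Sex-biased and drug-handling genes included the highest fold change among the genes named. Cyp2b9, a cytochrome P450 that female mouse livers express more (chromosome 7, 26958428 to 26995679, mm9), had 135, 61.1 and 212 CPM in HFD livers and 0.238, 0.254 and 0.102 CPM in chow livers. Every HFD liver was far above every chow liver, and the log2 fold change was 9.42 ± 0.95 (edgeR adjusted p = 4.32e-08). The related Cyp2b13 had 3.98, 0.936 and 3.30 CPM in HFD livers and 0, 0.109 and 0 CPM in chow livers, with 32.7% of its words shared with other genes. Hao2, another female-biased gene, had 1.45, 1.06 and 1.14 CPM in HFD livers and 0.143, 0 and 0.0341 CPM in chow livers. Cyp3a44 was lower, at 7.04, 12.2 and 5.42 CPM in HFD livers and 57.1, 8.78 and 37.0 CPM in chow livers, with overlap and 36.8% shared words. In all, 3 of 15 female-biased genes rose and 2 fell, with a median of -0.35, and 1 fell without HFD replicate 1. The sign of this median was not stable. It was 0.35 over the 10 genes left by a filter of 1 CPM or more on average. With only the groups compared it was 0.32, and without chow replicate 3 it was 0.11.

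Male-biased genes were lower on balance, with 5 of 17 falling, 2 rising and a median of -0.77. Ugt2b1 had 274, 238 and 232 CPM in HFD livers and 436, 393 and 578 CPM in chow livers, and the near-identical pair Cyp4a12a and Cyp4a12b changed by -1.59 ± 0.43 and -2.20 ± 0.41. Cyp2u1 rose by 1.45 ± 0.17. Hsd3b5, a steroid enzyme, had 43.9, 34.5 and 30.3 CPM in HFD livers and 1.81, 1.52 and 3.79 CPM in chow livers, and was lost when HFD replicate 1 or any 1 chow liver was left out. It shares 27.0% of its words with other genes. Male-biased genes that fell numbered 3 without HFD replicate 2, HFD replicate 3 or chow replicate 3. Among 27 xenobiotic metabolism genes, 4 fell and none rose, with a median of -0.20. That is 14.8% lower, against 12.2% of all genes. Cyp3a11, the main drug-oxidizing CYP3A, had 447, 754 and 315 CPM in HFD livers and 5689, 3434 and 3400 CPM in chow livers, a change of -3.05 ± 0.48 (edgeR adjusted p = 2.85e-05). Cyp3a25, which shares 37.0% of its words, Ugt2b35 and Ephx1 fell by 1.67 ± 0.24, 0.76 ± 0.16 and 0.53 ± 0.17 on the log2 scale, and Ephx1 was lost without any 1 liver other than HFD replicate 2.

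Bile acid synthesis and transport had 2 of 18 lower and none higher, with a median of 0.04. Abcb4, the phospholipid pump of the canaliculus, had 446, 436 and 446 CPM in HFD livers and 659, 670 and 777 CPM in chow livers, and Baat, which conjugates bile acids, fell by 0.59 ± 0.13 on the log2 scale. Of 19 clock genes, 1 rose, Per2, at 50.2, 45.3 and 58.3 CPM in HFD livers and 32.6, 17.9 and 25.5 CPM in chow livers, and it was lost without chow replicate 2. Without HFD replicate 2, 2 clock genes rose, and without chow replicate 3, 1 fell. The clock list median was 0.19.

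The machinery of translation and respiration was lower by small amounts. Of 27 cytosolic ribosomal protein genes, 18 fell and none rose, with a median of -0.35. Rpl4 had 367, 389 and 379 CPM in HFD livers and 511, 543 and 545 CPM in chow livers, and Rpl23 had 155, 150 and 143 CPM in HFD livers and 235, 233 and 255 CPM in chow livers. Both share 40-base words with other genes, 22.7% for Rpl4 and 37.4% for Rpl23, as processed copies of these genes are common. Of 23 ribosome biogenesis genes, 8 fell and none rose, with a median of -0.10. Ncl, nucleolin, had 153, 168 and 156 CPM in HFD livers and 230, 219 and 251 CPM in chow livers, Gnl3, which overlaps Glt8d1 on the other strand, fell by 0.76 ± 0.10 on the log2 scale and Nop58 by 0.59 ± 0.11.

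Of 22 subunits of respiratory complex I, 8 fell and none rose, with a median of -0.17. Ndufs1 had 85.9, 88.2 and 96.2 CPM in HFD livers and 121, 120 and 124 CPM in chow livers. It overlaps Gm11602 on the other strand. The count was 5 without HFD replicate 1, 1 without HFD replicate 2, 5 without HFD replicate 3, 2 without chow replicate 1 and 4 without chow replicate 3. In the cell cycle list, 2 of 20 rose and 2 fell, with a median of 0.40. Ccnd1, cyclin D1, had 48.7, 60.9 and 72.4 CPM in HFD livers and 13.2, 18.0 and 17.8 CPM in chow livers, a change of 1.89 ± 0.37 (edgeR adjusted p = 0.000423), and Mcm3 changed by 0.64 ± 0.24. Pcna, with 35.0% shared words, changed by -0.30 ± 0.09 and Rrm2 by -0.73 ± 0.26. With length and GC trends removed, 1 member of the list rose and none fell. The members that rose numbered 1 without any 1 liver other than HFD replicate 2, and those that fell numbered 0 without chow replicate 1 and 1 without HFD replicate 2, HFD replicate 3 or chow replicate 3.

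Markers of hepatocytes were high in all 6 livers, as the tissue label requires: Alb, albumin, had 62650, 66760 and 57580 CPM in HFD livers and 69700, 68010 and 61570 CPM in chow livers. Of 16 hepatocyte markers, 4 rose, among them Cebpa, by 0.50 ± 0.13, and 2 fell, among them Cps1. Without HFD replicate 1, HFD replicate 3, chow replicate 2 or chow replicate 3, 2 of them rose. With length and GC trends removed, 2 hepatocyte markers rose and 4 fell. Macrophage and Kupffer cell markers summed to 746, 1294 and 762 CPM in HFD livers and 443, 539 and 562 CPM in chow livers. Of 22 tested, 7 rose and 1 fell, with a median of 1.06. Mpeg1, a macrophage pore protein, had 96.9, 177 and 103 CPM in HFD livers and 39.8, 53.3 and 50.2 CPM in chow livers, a change of 1.39 ± 0.38 that was not called without HFD replicate 2. Emr1, which encodes F4/80, had 23.3, 86.4 and 25.0 CPM in HFD livers and 12.3, 14.4 and 15.6 CPM in chow livers, and was lost without HFD replicate 2, at an edgeR adjusted p of 0.372. The count of markers higher was 1 without HFD replicate 2, 1 without chow replicate 1, 2 without chow replicate 2 and 3 without chow replicate 3, and 4 with length and GC trends removed, 4 with the replicate block, 4 without a filter on low counts and 13 with only the groups compared. The member that fell, Cd9, was lost without HFD replicate 1, HFD replicate 3, chow replicate 2 or chow replicate 3, and with length and GC trends removed. Clec4f, which defines resident Kupffer cells, was not called, at 111, 96.1 and 112 CPM in HFD livers and 70.4, 88.1 and 94.0 CPM in chow livers.

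Stellate cell and matrix genes summed to 630, 554 and 475 CPM in HFD livers and 448, 422 and 430 CPM in chow livers, and 8 of 19 rose with none lower, at a median of 0.77. Col1a1, the main fibrillar collagen, had 22.1, 9.19 and 9.14 CPM in HFD livers and 3.29, 2.54 and 4.06 CPM in chow livers, and was lost without HFD replicate 1 or chow replicate 2. Col3a1 had 59.8, 35.4 and 30.4 CPM in HFD livers and 13.4, 10.0 and 15.1 CPM in chow livers, and was lost without HFD replicate 1, at an edgeR adjusted p of 0.052. Pdgfrb, Sparc and Tgfb1 rose by 0.97 ± 0.23, 0.77 ± 0.19 and 1.18 ± 0.30 on the log2 scale. Without HFD replicate 1, 4 of the list rose, and without chow replicate 2, 5 rose. Acta2, a marker of activated stellate cells, was not called, with a log2 fold change of 0.43 ± 0.61.

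The remaining cell type lists gave few calls. Of 14 endothelial markers 3 rose, Eng, which overlaps Fpgs on the other strand, Tie1 and Cdh5, with a median of 0.33, and Cdh5 was lost without any 1 liver other than HFD replicate 1. Of 16 lymphocyte markers, which summed to 8.20, 11.7 and 6.09 CPM in HFD livers and 3.38, 7.51 and 5.02 CPM in chow livers, Cd4 and Cd3e were called higher, and Cd3e was lost when any 1 of the 6 livers was left out. The list still had 2 members higher without HFD replicate 3 or chow replicate 2, as another member was called there. Alas2, the only one of 3 tested erythrocyte markers called, had 127, 133 and 117 CPM in HFD livers and 70.5, 60.6 and 74.4 CPM in chow livers. The whole erythrocyte list summed to 127.7, 133.3 and 117.8 CPM in HFD livers and 70.7, 60.8 and 74.6 CPM in chow livers. Alas2 thus made up nearly all of the sum, and the other markers were close to absent. Of 6 cholangiocyte markers, 1 was called higher, and none was when any 1 of the 6 livers was left out. No neutrophil marker of 6 and no skeletal muscle marker of 14 was called.

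Some genes listed as adipocyte markers rose without the markers that define fat tissue. Car3, carbonic anhydrase 3, had 2856, 1699 and 3559 CPM in HFD livers and 271, 105 and 101.2 CPM in chow livers, a change of 4.09 ± 0.58 (edgeR adjusted p = 8.39e-06). Cfd, the complement factor adipsin, had 25.6, 19.5 and 32.5 CPM in HFD livers and 1.10, 0.508 and 0.614 CPM in chow livers. With Cidea and Adrb3, 4 of 7 tested rose, at a median of 3.86, and Adrb3 was lost without any 1 liver other than chow replicate 3. Adipoq, adiponectin, had 0.0828, 0.163 and 0.212 CPM in HFD livers and 0.286, 0.145 and 0.205 CPM in chow livers, and Plin1, perilipin 1, stayed at or below 0.137 CPM in every library.

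Beside genes already named, those with the highest fold changes among called, non-overlapping genes of at least 5 CPM on average were Serpina7, C730036E19Rik, Gbp10, Gm20594 and Lgals1. Serpina7, thyroxine-binding globulin, had 62.1, 46.6 and 55.8 CPM in HFD livers and 5.86, 7.40 and 2.18 CPM in chow livers, a change of 3.42 ± 0.54. Lgals1, galectin 1, had 38.2, 18.5 and 46.9 CPM in HFD livers and 5.002, 3.77 and 3.89 CPM in chow livers. C730036E19Rik had 119, 74.1 and 120 CPM in HFD livers and 9.86, 7.88 and 7.61 CPM in chow livers, and Gbp10 shares 86.0% of its words with other genes, as 9430037G07Rik, given next, shares 31.3%.

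At the low end stood Moxd1, E030018B13Rik, Gm15441, Lepr, 9430037G07Rik, Snhg11 and Slco1a4 beside the P450 and Ehhadh genes above. Lepr, the leptin receptor, had 4.31, 6.71 and 3.94 CPM in HFD livers and 13.1, 35.2 and 51.1 CPM in chow livers, a change of -2.73 ± 0.72 (edgeR adjusted p = 0.00551). Slco1a4, an organic anion transporter, had 25.4, 45.2 and 40.9 CPM in HFD livers and 262, 164 and 151 CPM in chow livers. Snhg11, a small nucleolar RNA host gene, had 3.94, 2.48 and 4.74 CPM in HFD livers and 22.1, 21.3 and 19.7 CPM in chow livers. Moxd1 had 0.207, 0.0407 and 0 CPM in HFD livers and 1.43, 0.980 and 39.2 CPM in chow livers, so that 1 chow liver set its rank, and it was not called without it (edgeR adjusted p = 0.125).

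The diet effect at 15 min was set against that in the separate mice at baseline. Of the 3438 genes called at 15 min, 2562 were called in the same direction at baseline, which is 74.5% of the calls at 15 min and 56.4% of the 4539 at baseline, and 4 were called in opposite directions. The percentage called at baseline was 32.3%. Across all tested genes, the log2 fold changes correlated at Spearman's rho 0.71 and Pearson's r 0.542, as a description over genes, which are not independent. The diets differed in GC trend at baseline as at 15 min. The correlations with GC content at baseline were 0.28, 0.32 and 0.17 in HFD livers and -0.077, -0.29 and -0.29 in chow livers. The part of this shared trend in the agreement between times was not tested. Shares in the same direction at later times were 70.8% at 30 min, 50.4% at 60 min and 61.7% at 120 min, where 37.3%, 22.4% and 28.2% of genes were called. 1205 genes were called in 1 direction at all 5 times, 543 higher and 662 lower in HFD livers.

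**Figure D4:**
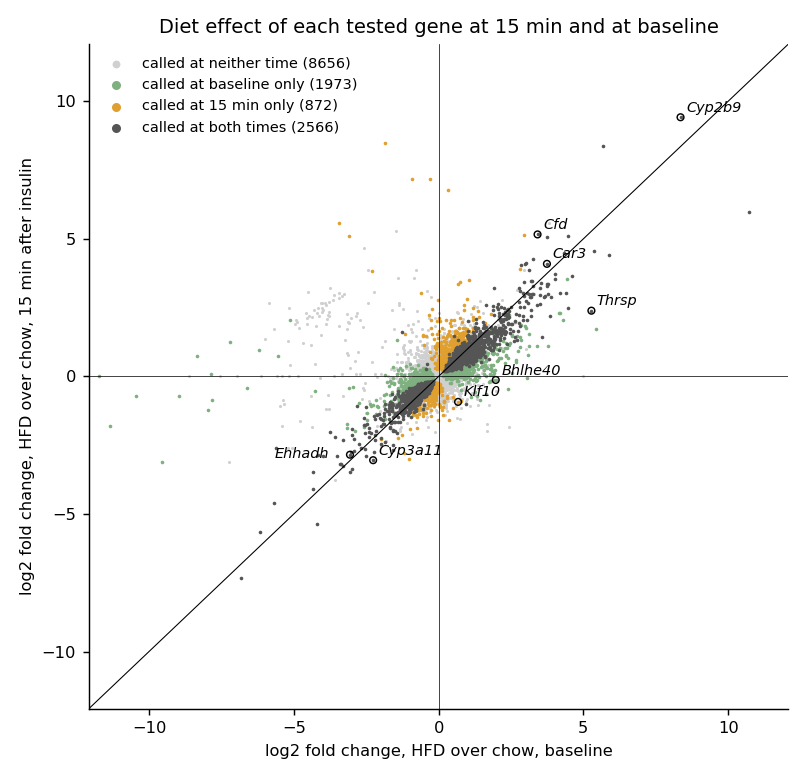
Log2 fold change (16-week HFD over chow) of each of 14067 genes 15 min after insulin (vertical) against that at baseline (horizontal), from mice that are not shared, with the diagonal drawn and 8 genes circled. 2566 genes were called at both times, 872 at 15 min only and 1973 at baseline only, and Bhlhe40 and Klf10 lie below the diagonal.

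The fit tested directly whether the diet effect at 15 min differed from that at baseline. A single gene was called, Bhlhe40 (0.00711%), while 848 genes had an unadjusted p under 0.05, or 6.03%, and DESeq2 called 12. Bhlhe40, a clock-linked repressor also known as DEC1 (chromosome 6, 108610623 to 108616919, mm9), had 116, 88.9 and 108 CPM in HFD livers and 80.4, 113 and 149 CPM in chow livers at 15 min, with overlap and a log2 fold change of -0.13 ± 0.24. At baseline it averaged 107 ± 9.49 CPM in HFD livers and 27.3 ± 0.49 CPM in chow livers (SD, n = 3 each), a log2 fold change of 1.97 ± 0.25. The difference of the effects was -2.10 ± 0.34 (edgeR adjusted p = 0.00581). Between baseline and 15 min, the log2 change was -0.04 ± 0.24 on HFD and 2.07 ± 0.25 on chow. The difference was not called without HFD replicate 2, at an adjusted p of 0.0565, or without chow replicate 3, at 0.065. Bhlhe40 overlaps 0610040F04Rik on the other strand.

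Against the mean diet effect at 30, 60 and 120 min, 4 genes were called (0.0284%), 2 of them higher (0.0142%) and 2 lower (0.0142%), while 1329 had an unadjusted p under 0.05, or 9.45%, and DESeq2 called 25. Klf10, a TGF-β-inducible zinc finger factor, averaged 36.0 ± 2.63 CPM in HFD livers and 68.3 ± 18.2 CPM in chow livers at 15 min. Its diet effects were 0.67 at baseline, -0.93 at 15 min, 1.53 at 30 min, 1.16 at 60 min and -0.05 at 120 min. The difference from the later times was -1.81 ± 0.33 (edgeR adjusted p = 0.0181). Txnip, whose diet effects were -0.80, -1.20, 0.69, 0.67 and -0.24 over the same times, differed by -1.57 ± 0.29 (edgeR adjusted p = 0.0181). In chow livers Txnip averaged 287 ± 80.7 CPM at 15 min and 42.9 ± 3.97 CPM at 30 min.

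Itga5, the fibronectin receptor subunit, had 18.9, 20.1 and 18.7 CPM in HFD livers and 19.5, 22.5 and 20.99 CPM in chow livers at 15 min, and differed from the later times by 0.83 ± 0.16 (edgeR adjusted p = 0.0221). The call for Itga5 was lost without any 1 of the 6 livers, with length and GC trends removed (adjusted p = 0.056) and with only the groups compared (adjusted p = 0.0901). The calls for Klf10 and Txnip were lost without any 1 liver other than chow replicate 1, and that for Klf10 also with the replicate block (adjusted p = 0.0605). Thus 1 of the 4 genes was called without either HFD replicate 1, HFD replicate 2, HFD replicate 3, chow replicate 2 or chow replicate 3.

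The diet effect on G6pc was -1.32 at baseline, -1.66 at 15 min, -1.28 at 30 min, -1.20 at 60 min and -1.31 at 120 min, and was called at all 5 times. Its mean level over these times was 175, 215, 148, 185 and 294 CPM in HFD livers and 437, 681, 358, 425 and 727 CPM in chow livers, so that chow livers were higher on average at each. Rgs4, at -0.46, 0.76, 1.37, 0.61 and -0.13, was called at 30 min (edgeR adjusted p = 0.00355) and at no other time.

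**Figure D5:**
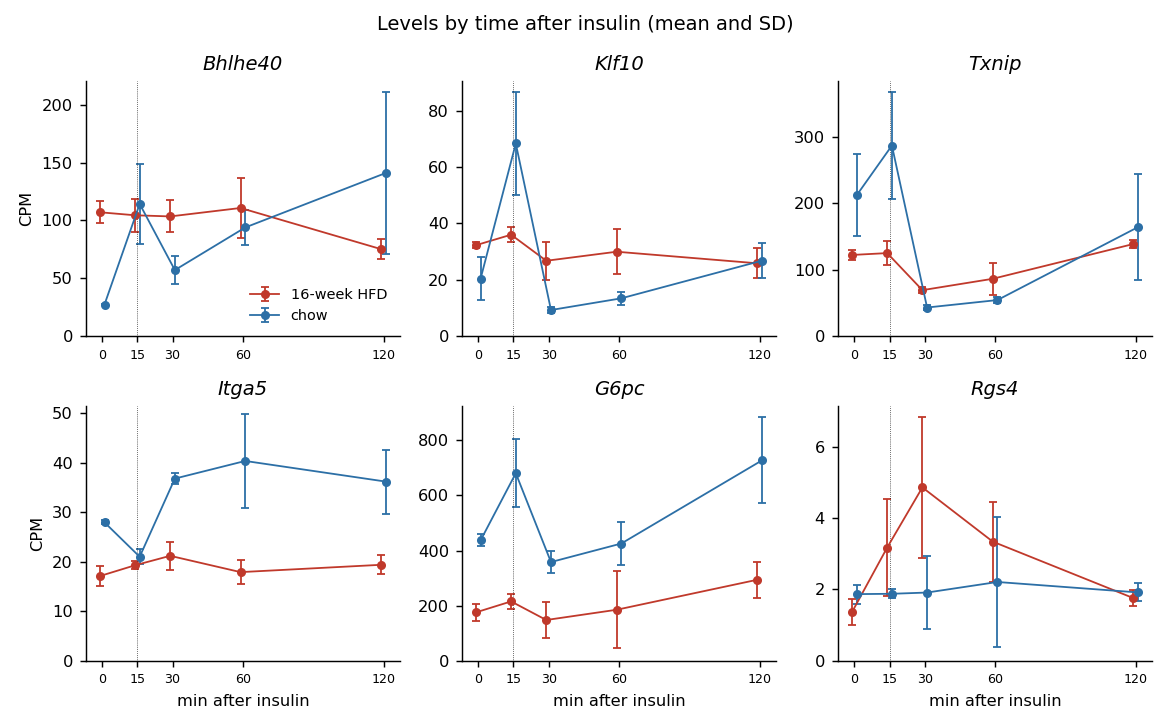
CPM of 6 genes by time after insulin (mean and SD, n = 3 per diet and time, and 6 for HFD at 30 min), with 16-week HFD in red and chow in blue, points of the same time set apart slightly, and 15 min marked by a dotted line. Chow livers have the highest mean of Klf10 at 15 min, 68.3 CPM, and G6pc is lower in HFD livers at each of the 5 times.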

How the data were processed

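Raw read counts per gene were deposited by the authors. Per the submitters' processing notes, TopHat 1.4.0 aligned the reads to the mouse build mm9, and HTSeq (version not given in the sources used here) made the counts. The library kit (TruSeq RNA v1) does not keep strand, and gene positions come from the deposited mm9 gene models. The 33 columns of the authors' normalized values were not used, as they were normalized per diet.

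All 45 libraries entered 1 fit with 14 groups (edgeR 4.0.16 in R 4.3.3, TMM scaling, filterByExpr with a minimum count of 10, quasi-likelihood F test, Benjamini-Hochberg adjustment within each comparison, calls below 0.05). The procedure was also run on simulated counts. These had the same spread for all genes, no GC or length trend and no pancreatic transcripts of a single library, so they do not show how those features affect the calls. Fold changes are relative to the TMM scaling. The SE was taken as the size of the log2 value over the root of its F statistic. CPM are TMM-scaled. DESeq2 1.42.0, other scalings and filters, a replicate block, trends with exon length and GC content (transcripts of GENCODE M21) and leaving out each library were alternatives. Replicates differed by more than sampling noise, so none was merged. The labels give no pairing of livers by replicate number, and the main fit used none.

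Genes named were the 10 highest and 10 lowest fold changes among called genes of at least 5 CPM without overlap, up to 4 called members per list with the smallest adjusted p, 9 genes fixed by name, and genes called in the differences between times. Other genes given are defining markers or were picked after their values were seen. The members and lists were chosen with earlier results of these data known. A gene with 20% or more of its 40-base words in other genes was treated as uncertain. Some genes that met these rules are not reported here.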

Additional observations from a re-analysis of the deposited data

Results flagged for a closer look

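For 4 genes given here the diet effect at 15 min differed from that at other times by a direct test in edgeR. The diet effect on Bhlhe40 at 15 min differed from that at baseline by -2.10 (log2). Against the mean of 30, 60 and 120 min, the diet effect at 15 min differed by -1.81 for Klf10, -1.57 for Txnip and 0.83 for Itga5.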

How the results depend on the processing

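The number of calls at 15 min, 3438, stayed within 1.5 times that count under every alternative tried, from 2409 without chow replicate 3 to 4023 without the metformin libraries, and was 2409 to 2683 when 1 liver was left out. The genes called changed more than their number. With length and GC trends removed, 2524 of 3415 calls were among the 3438, and 2433 of 3266 with the replicate block as well. With only the groups compared, 2998 of 3919 were. Of 132 single-gene results, 88 kept direction and call throughout. Without chow replicate 3, the log2 fold change of Bhlhe40 turned to 0.11, and that of Egr1, which ranged from -1.46 to 0.012 when 1 liver was left out, turned positive. Neither was called in either fit. For the difference from baseline, 1 gene was called, against 12 by DESeq2, 8 with only the groups compared, 3 with length and GC trends removed, 3 with these and the replicate block, 3 without the metformin libraries, and 0 to 3 when 1 library was left out. For the difference from later times, 4 were called, against 25 by DESeq2, 8 with only the groups compared, 9 without the metformin libraries, and 1 to 6 when 1 of the 6 livers at 15 min was left out. Livers at 30, 60 and 120 min were not left out in turn. The causes were not tested.

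Deviations of livers with the same replicate number correlated at -0.28, 0.14 and -0.33. They were taken from the mean of each diet and are tied to each other, so they cannot decide whether the numbers pair livers. The replicate block gave 3268 calls at 15 min, 1 for the difference from baseline and 4 for that from later times. Counts near 0 limit the genes with few reads.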
